A study of Mus musculus with 6 samples.

Results

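The type I interferon effector genes are antiviral genes that cells switch on after type I interferon binds its receptor. A list of 40 was chosen by name: antiviral effectors, without the sensors and signalling proteins of the pathway and without the GBP and IRG families of interferon-induced GTPases. Rows were read for 38 of them among the 21878 genes of the table, and 37 passed the filter on low counts that left 12136 genes to test. Ifit3b did not pass, and Mx1 and Mx2 are not analysed here.

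RNA was sequenced in bulk from tumour-associated macrophages, which live within the tumour tissue, collected by fluorescence-activated sorting. Mice of both groups carried floxed alleles of Trmt61a and an MC38 tumour, a transplanted mouse colon carcinoma, injected 14 days earlier. The 3 KO libraries came from Trmt61af/fLysmCre mice, in which the Cre is made from the lysozyme M locus of myeloid cells. It is therefore not limited to macrophages. The 3 WT libraries came from Trmt61af/f mice without the Cre. Trmt61a codes for the catalytic part of the tRNA methyltransferase that makes m1A, a methylated adenosine, and the study asks about interferon-associated genes in macrophages that lack it. These libraries measure RNA and not translation. Replicates are numbered 1 to 3, without a statement that each is its own mouse, so a p-value here measures only how these libraries vary, and that may be technical. The sources used here do not give the mice's age or sex, or the sorting gate.

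Type I interferon binds the receptor made of Ifnar1 and Ifnar2. Signalling from the receptor activates a transcription factor complex that contains Stat2 and Irf9 and binds the interferon-stimulated response element, or ISRE, in the promoters of effector genes. The effectors act on different steps of a viral infection: entry, translation and copying of the genome, and release of virions. Macrophages keep a basal level of many of them, and within tumours they are used as a readout of interferon reaching the cells.

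Because the members share this control element in textbook descriptions, their promoters were searched for its core (GAAA, any 2 bases, GAAA) on both strands and with overlapping matches allowed. Windows from 250 bases before to 50 bases after the start site were taken from RefSeq (GRCm38.p6), which gave 38 windows for 30 of the 40 listed genes. The core was present in 17 of these 38 windows, or 44.7%, and in 1131 of all 32851 windows, or 3.44%. By gene, 15 of the 30 had it, against 3.99% of 27025 genes. Isg15 and Bst2 are shown in full because their RNA levels did not overlap between the groups and their matches lie before the start site. Their 250 bases before the start site follow, with the matches in capitals (Isg15 at chr4:156200819-156201068 and Bst2 at chr8:71537473-71537722, both on the minus strand).
Isg15: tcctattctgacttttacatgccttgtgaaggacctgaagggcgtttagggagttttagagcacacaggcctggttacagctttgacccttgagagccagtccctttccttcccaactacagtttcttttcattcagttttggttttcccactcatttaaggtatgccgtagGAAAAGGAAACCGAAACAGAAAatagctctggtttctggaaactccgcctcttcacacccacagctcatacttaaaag
Bst2: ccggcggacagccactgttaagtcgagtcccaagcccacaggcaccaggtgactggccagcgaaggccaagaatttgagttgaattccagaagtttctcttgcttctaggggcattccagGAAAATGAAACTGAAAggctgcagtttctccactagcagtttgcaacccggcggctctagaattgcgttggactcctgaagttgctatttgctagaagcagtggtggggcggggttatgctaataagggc

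In Isg15 the capitals are 3 overlapping matches that begin 78, 72 and 66 bases before the start site. In Bst2 they are 2 overlapping matches that begin 130 and 124 bases before it. Within the Ifit1, Ifit3 and Ifit3b set and within the Oas1a and Oas1g pair the matched letters were the same. The stretches around the matches of Ifit1 (chr19:34640765-34640833, plus strand), Ifit3 (chr19:34583353-34583436, plus), Ifit3b (chr19:34607749-34607832, plus), Oas1a (chr5:120907526-120907565, minus) and Oas1g (chr5:120887614-120887651, minus) are printed for that reason, again with the matches in capitals.
Ifit1: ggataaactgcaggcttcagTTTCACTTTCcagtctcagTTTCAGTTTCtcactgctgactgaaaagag
Ifit3: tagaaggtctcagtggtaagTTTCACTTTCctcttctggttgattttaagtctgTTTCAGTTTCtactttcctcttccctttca
Ifit3b: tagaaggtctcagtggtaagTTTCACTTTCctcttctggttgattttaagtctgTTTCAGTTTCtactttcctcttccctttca
Oas1a: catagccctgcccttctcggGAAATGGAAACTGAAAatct
Oas1g: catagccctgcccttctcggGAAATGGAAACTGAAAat

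These 3 Ifit genes each hold 2 matches on the opposite strand, with the same letters in the same order. Ifit3 and Ifit3b are alike at 188 of 218 promoter bases compared without gaps from the first match, Oas1a and Oas1g at 158 of 248, and Ifit1 and Ifit3 at 60 of 198. Ifit2 had 2 windows and no match. Oas3, Rsad2 and Slfn5 each held 1 match before the start site, and Ifi205, Slfn8, Trim30a, Ifitm3 and Eif2ak2 complete the 15 genes. A match is a description of letters and not evidence of binding.

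**Figure D1:**
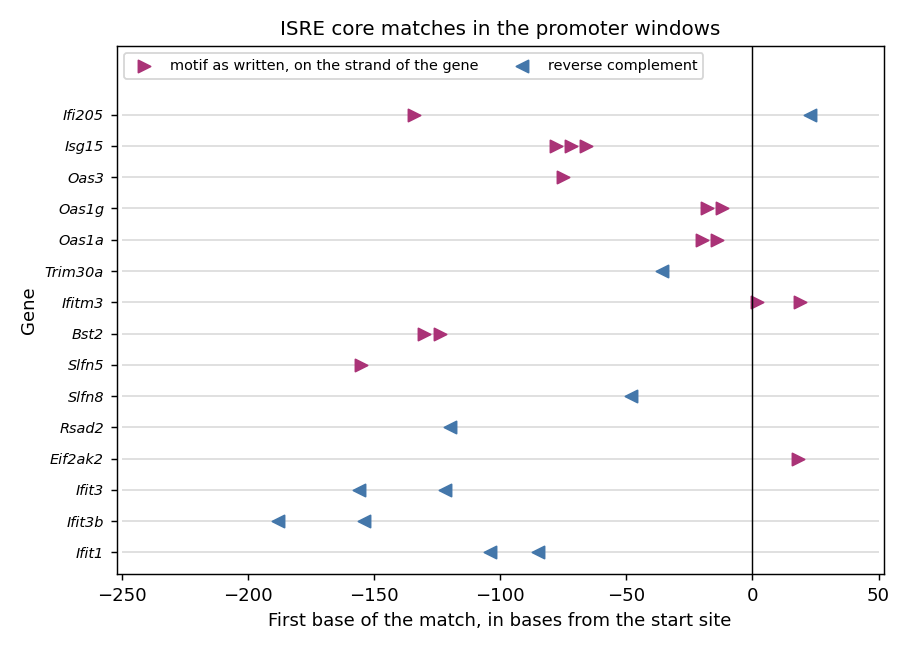
First base of each match to the ISRE core in the promoter window of the 15 genes that had one (1 window drawn a gene), in bases from the start site; right-pointing triangles are on the strand of the gene and left-pointing ones on the opposite strand. Isg15 has 3 matches and each Ifit gene 2, all before the start site, while both matches of Ifitm3 and that of Eif2ak2 lie after it.

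Libraries held 18839026 to 20313597 counts, and no pair agreed within sampling noise (chi-square per degree of freedom of at least 7.70). Trmt61a counts were 157, 138 and 148 in WT but only 41, 33 and 50 in KO (log2 fold change -1.81, SE 0.197, edgeR adjusted p = 0.0426), which fits the label of each of the 6 libraries. Leaving out any 1 library other than KO replicate 2 ended that call (edgeR adjusted p of 0.0707 to 0.314), with log2 values of -1.94 to -1.76. Macrophage markers were abundant, at 13370 to 14750 CPM in WT against 12160 to 14010 CPM in KO summed over 10 genes. CPM are a gene's counts relative to the TMM-scaled library total. In bulk RNA, fewer cells of a type and less RNA per cell cannot be told apart.

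No type I interferon effector gene passed the test between KO and WT, and nearly all had a small negative difference. Of 37 tested members, 0 were called lower and 0 higher at an edgeR adjusted p under 0.05, against 0.0165% and 0% of all tested genes. DESeq2 and limma-voom also called 0, but DESeq2 gave no adjusted p for Ifi44 and so could not call it. The log2 fold change was negative in 34 members (91.9%), as it was in 50.2% of all tested genes, and its median was -0.23, beside -0.00088 over all tested genes. Values ran from -0.76 for Ifi44 to 0.25 for Dtx3l. At an unadjusted p under 0.05, 5 members (13.5%) were lower and 0 higher, where 3.06% of all tested genes were lower and 3.86% higher. The same 5 had all KO libraries below all WT libraries, a pattern that 6.3% of tested genes showed, and 0 had all KO libraries above, which 6.11% of tested genes did. The precision limits these statements. For 34 of 37 members the 95% interval of the log2 fold change lay between -1 and 1, which leaves out a 2-fold difference, and Ifit1, Ifi205 and Ifi44 were the exceptions.

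**Figure D2:**
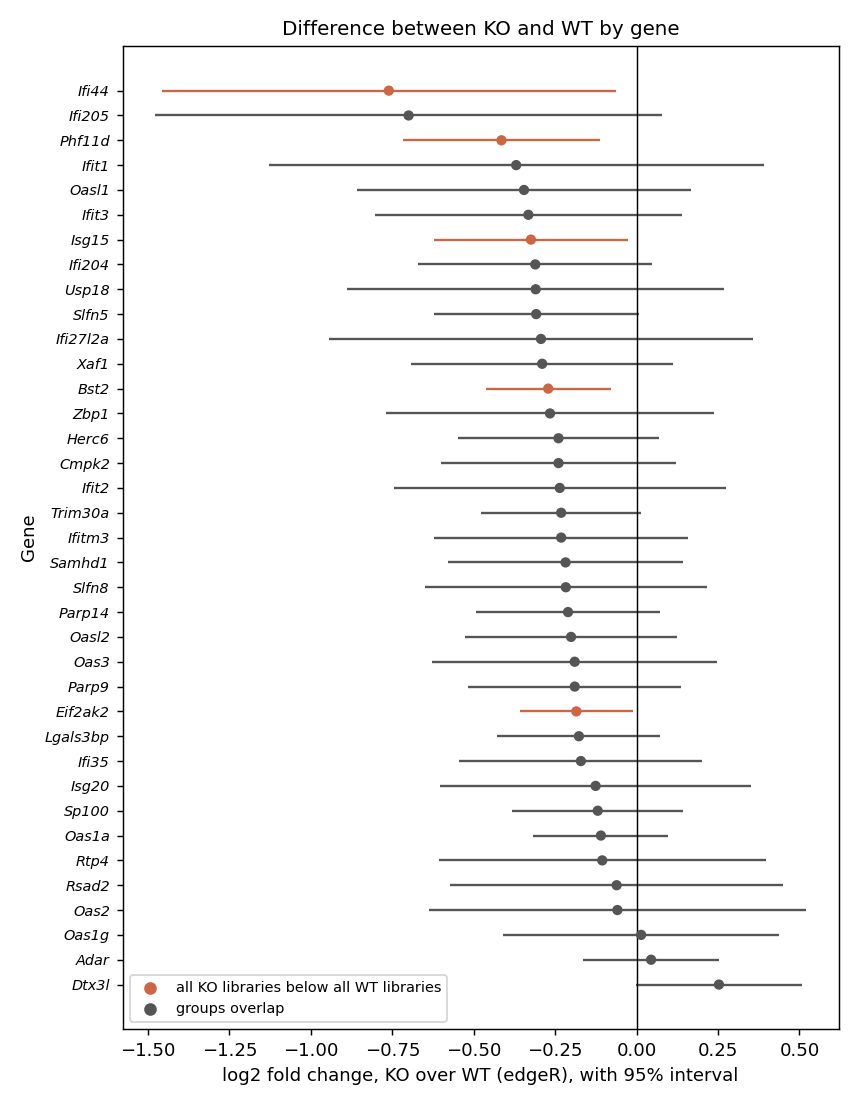
The log2 fold change of KO over WT from edgeR for the 37 tested genes (points) with its 95% interval (lines), sorted by size. The 5 genes whose KO libraries all lay below the WT libraries are coloured, and only Oas1g, Adar and Dtx3l are at or above 0.

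The 5 genes without overlap act at different steps. Bst2 encodes tetherin, which holds budding virions at the cell surface (NCBI Gene 69550, chromosome 8, 71534255 to 71537456, minus strand, GRCm38). It was at 114, 95.8 and 101 CPM in the WT libraries, against 80.0, 87.1 and 90.4 CPM in the KO libraries. The highest KO library was close below the lowest WT library, and the log2 difference was -0.27 (SE 0.0857, edgeR adjusted p = 0.701), rank 159 of all tested genes by p.

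Isg15 encodes a ubiquitin-like protein that is attached to other proteins (chromosome 4, 156199424 to 156200818, minus strand). Its levels were 38.0, 32.1 and 32.9 CPM in WT against 21.8, 29.9 and 30.6 CPM in KO (log2 -0.32, SE 0.133, edgeR adjusted p = 0.713). KO replicate 1 stood well below the other libraries, which lay within 29.9 to 38.0 CPM. Without it the log2 value was -0.18.

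Eif2ak2 encodes PKR, a kinase that stops translation when it meets double-stranded RNA (chromosome 17, 78852564 to 78882573, minus strand). It was at 42.3, 42.2 and 45.7 CPM in WT against 40.3, 37.1 and 37.2 CPM in KO (log2 -0.19, SE 0.0773, edgeR adjusted p = 0.713). Here KO replicate 1 was the highest of the KO libraries.

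Phf11d, a PHD finger gene, was at 12.6, 12.7 and 13.01 CPM in WT against 7.95, 10.4 and 10.3 CPM in KO (log2 -0.41, SE 0.136, edgeR adjusted p = 0.701). The WT libraries were nearly level and the KO libraries spread. Ifi44, an interferon-induced gene, was the least abundant of the tested members per length. It had 107, 75 and 80 counts in WT against 29, 50 and 74 in KO, that is 5.46, 3.78 and 3.99 CPM against 1.51, 2.62 and 3.65 CPM. Its KO replicate 3 nearly met the WT libraries, and its log2 value was -0.76 (SE 0.312, edgeR adjusted p = 0.713) with all libraries and -0.49 without KO replicate 1.

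**Figure D3:**
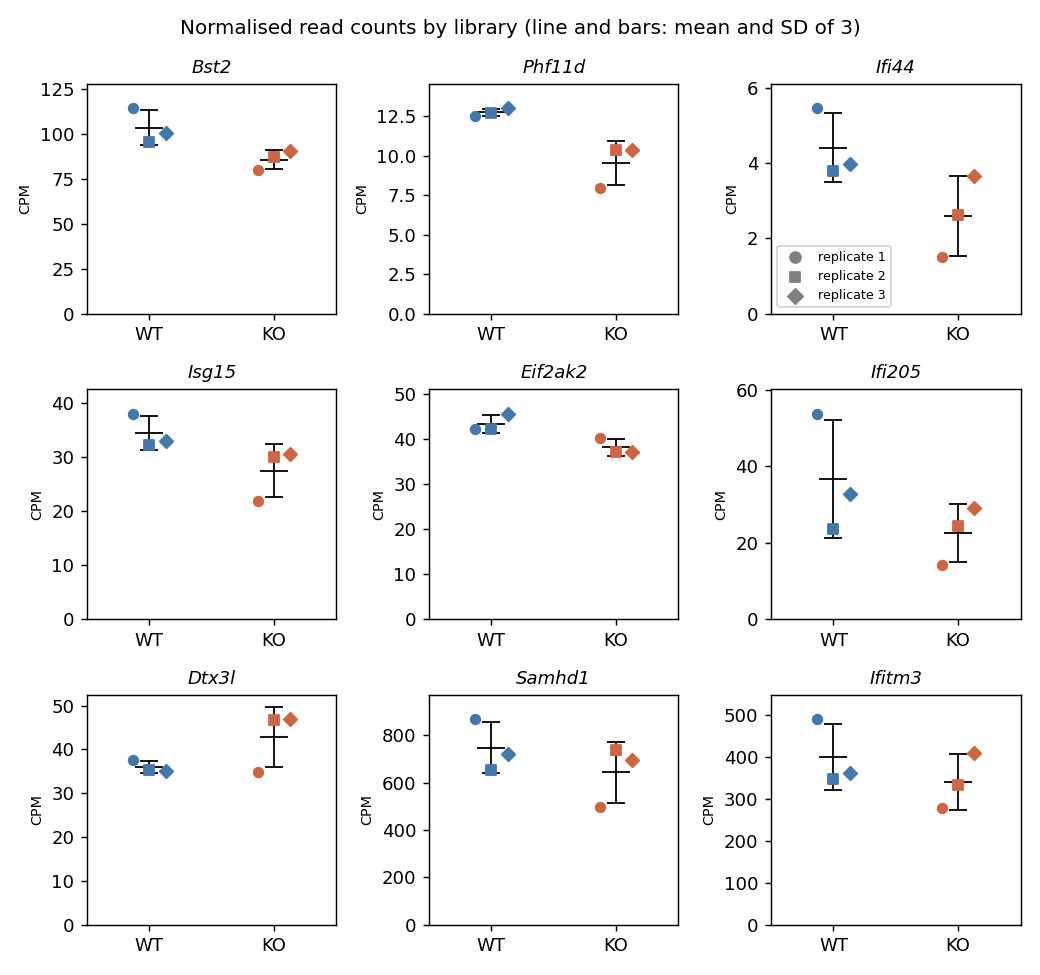
CPM of 9 genes in each library (symbols, 1 for each replicate number) with the mean and SD of 3 libraries (black line and bars), on axes that start at 0. Bst2, Phf11d, Ifi44, Isg15 and Eif2ak2 do not overlap between the groups, Ifi205, Samhd1 and Ifitm3 have WT replicate 1 highest and KO replicate 1 lowest, and Dtx3l is higher in KO replicates 2 and 3.

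Much of the difference lay in 1 library of each group. WT replicate 1 was the highest of all 6 libraries for 29 of 37 members (78.4%), as it was for 21.7% of all tested genes. KO replicate 1 was the lowest for 30 of 37 (81.1%), against 20% of all tested genes. Inside each group, where genotype does not enter, the counts contain those members by construction. There WT replicate 1 was the highest WT library for 32 members (35.8% of all tested genes), and KO replicate 1 the lowest KO library for 32 (33.1%). Both were true of 29 members, and of 14.3% of all tested genes. The 8 exceptions were Ifit3, Oas1g, Oas2, Cmpk2, Isg20, Adar, Eif2ak2 and Phf11d.

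The mean centred log2 CPM of the 37 members was 0.35, -0.10 and 0.09 in the WT libraries, against -0.40, 0.07 and -0.02 in the KO libraries. The groups thus overlapped, with WT replicate 2 below KO replicates 2 and 3. The ratio of WT replicate 1 to KO replicate 1 ran from 1.04 for Isg20 to 3.79 for Ifi205, with a median of 1.70. Members also varied more within a group than other genes did: the median within-group SD was 0.26 on the log2 CPM scale, against 0.139 over all tested genes and 0.112 over those above 10 CPM.

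**Figure D4:**
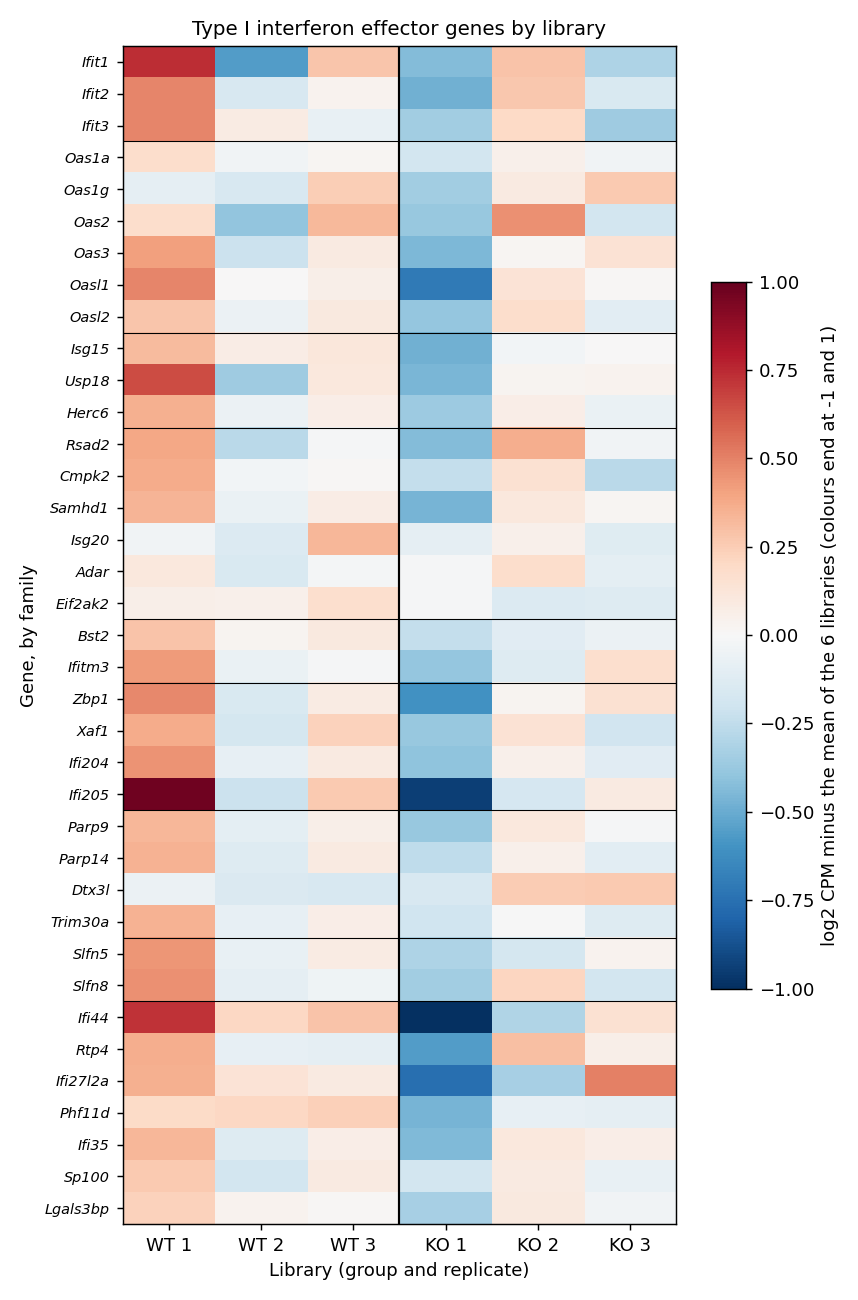
Log2 CPM of each tested gene minus its mean over the 6 libraries, with genes in rows by family and libraries in columns, the WT libraries left of the line. WT replicate 1 is the highest column for 29 of 37 genes and KO replicate 1 the lowest for 30.

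Leaving out either library shrank the median without turning it. Without WT replicate 1 it was -0.10, with 33 members negative, and without KO replicate 1 it was -0.11, with 31 negative. Without both, 15 of 37 members were negative, where 49.1% of all tested genes were, and the median was 0.04. These 2 libraries were chosen after their levels were seen. For the 29 members in which they are the highest WT and the lowest KO library, leaving them out moves the value upward by construction. Eif2ak2, which is not among those, went from -0.19 to -0.25. Bst2, Isg15, Phf11d, Ifi44 and Eif2ak2 have all KO libraries below all WT libraries. Their negative sign was therefore all but fixed in advance when libraries were left out, and only its size could change. Over the 16 alternatives the values ran from -0.32 to -0.15 for Bst2, -0.41 to -0.11 for Isg15 and -0.48 to -0.30 for Phf11d. They ran from -1.09 to -0.31 for Ifi44 and from -0.25 to -0.15 for Eif2ak2. Leaving out the other 4 libraries in turn left 32 to 36 members negative. All KO libraries then lay below all WT libraries in 13 of 37 members without WT replicate 2 and in 15 of 37 without KO replicate 2. The shares of all tested genes were 12.5% and 12%. It was 5 of 37 without WT replicate 3 (10.3% of all tested genes) and 8 of 37 without KO replicate 3 (15.6%). Without WT replicate 1 or KO replicate 1 it stayed at 5 of 37, beside 9.13% and 9.71% of all tested genes. Leaving a library out cannot lower this number. Slfn5 (-0.15), Trim30a (-0.10), Ifi204 (-0.15), Ifi205 (-0.32), Herc6 (-0.11), Parp14 (-0.08), Samhd1 (-0.10), Ifitm3 (-0.06) and Lgals3bp (-0.11) were each over 1.5 times nearer to 0 without WT replicate 1 than with all libraries.

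The IFIT proteins bind foreign RNA and block its translation, and their genes lie together on chromosome 19. Ifit1, Ifit2 and Ifit3 had log2 values of -0.37 (SE 0.330), -0.24 (SE 0.222) and -0.33 (SE 0.211). Ifit1 had 253, 103 and 188 counts in WT against 109, 179 and 126 in KO, so its lowest library was a WT one. Ifit3b had 19, 9 and 3 counts in WT against 7, 4 and 10 in KO. Of the 50-base words in the Ifit3 transcripts, 51.2% also occur in Ifit3b, so the reads of the pair can be divided in a way the counts do not record.

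Active enzymes of the OAS family make short oligoadenylates that activate RNase L, which degrades RNA. Of the 6 listed genes of the family, OAS-like ones included, 5 were negative, with a median of -0.15. Oasl1, a member known to restrain Irf7 synthesis, was at 31.2, 22.3 and 23.1 CPM in WT against 13.5, 24.4 and 22.4 CPM in KO (log2 -0.35, SE 0.223). Only its KO replicate 1 stood below the rest. Oas1a was the steadiest of the family, at 38.3 ± 2.99 CPM in WT against 35.5 ± 2.90 CPM in KO (SD, n = 3 each; log2 -0.11, SE 0.0929). Oas1g, with a log2 value of 0.01 (SE 0.190), shares 45.2% of its 50-base words with Oas1a, and Oas1a shares 57.6% of its words with Oas1g, so both values are uncertain. Oas2 (-0.06), Oas3 (-0.19) and Oasl2 (-0.20) complete the family.

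In the ISG15 system, Usp18 removes Isg15 from its targets and also damps the interferon receptor, and Herc6 is a ligase that attaches Isg15. Usp18 was at 10.5 ± 3.71 CPM in WT against 8.47 ± 1.58 CPM in KO (log2 -0.31, SE 0.255). Herc6 was at 36.3, 27.2 and 29.8 CPM in WT against 22.1, 29.8 and 27.2 CPM in KO (log2 -0.24, SE 0.137). Both groups overlapped for each of these genes. Gm45193 overlaps Herc6 on the same strand and shares 12% of its 50-base words.

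Among the enzymes of nucleotides and RNA, Samhd1, which breaks down the deoxynucleotides that viruses need, had the most reads of any member. It was at 869, 654 and 723 CPM in WT against 499, 737 and 695 CPM in KO (log2 -0.22, SE 0.158, edgeR adjusted p = 0.792). KO replicates 2 and 3 lay inside the WT range. Rsad2 encodes viperin, which makes a chain-terminating nucleotide, and Cmpk2, a nucleotide kinase, lies 12.8 kb away in the opposite direction. The pair had log2 values of -0.06 (SE 0.221) and -0.24 (SE 0.161). The exonuclease gene Isg20 was at 3.73 ± 0.669 and 3.42 ± 0.226 CPM (log2 -0.13, SE 0.214). Adar, which edits adenosines in double-stranded RNA, had a positive log2 value of 0.04 (SE 0.0939).

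Ifitm3 encodes a membrane protein that hinders the entry of viruses. It was at 489, 348 and 361 CPM in WT against 278, 332 and 410 CPM in KO (log2 -0.23, SE 0.169, edgeR adjusted p = 0.795), so the groups overlapped. Compared per length of annotated exon, it was the most abundant member, at 589 ± 115 CPM per kb in WT and 502 ± 97.3 in KO (SD, n = 3 each). Bst2 and Lgals3bp followed at 115 ± 10.7 and 114 ± 9.45 CPM per kb in WT, which did not differ beyond their spread, then Samhd1 at 81.8 ± 12 and Ifi27l2a at 73.0 ± 7.37, which did not either. Isg15 was at 45.4 ± 4.18 and Ifi44 lowest at 0.719. Exons of all isoforms were joined for the length, which lowers the value of genes with long or unused exons.

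Zbp1 senses Z-form nucleic acid and can start cell death, Xaf1 is a proapoptotic gene, and Ifi204 and Ifi205 are PYHIN proteins, a family that binds DNA. All 4 were negative, with a median of -0.30. Ifi205 had the widest within-group spread of the tested members (SD 0.568 on the log2 scale): 53.7, 23.5 and 32.7 CPM in WT against 14.2, 24.4 and 29.1 CPM in KO (log2 -0.70, SE 0.336, edgeR adjusted p = 0.725). Its value was -0.08 without the first replicate of each group. Ifi204 was at 142, 97.5 and 110 CPM in WT against 78.3, 107 and 95.8 CPM in KO (log2 -0.31, SE 0.156). Part of the words of both genes recur in other genes (20% for Ifi204 and 18.6% for Ifi205), mostly Ifi211.

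Parp9 and Parp14 belong to the ADP-ribosyltransferases, and Dtx3l is the ubiquitin ligase that pairs with Parp9. Parp9 and Dtx3l lie head to head on chromosome 16 and overlap by 682 bases. Dtx3l was at 37.5, 35.3 and 35.0 CPM in WT against 34.9, 46.7 and 46.9 CPM in KO (log2 0.25, SE 0.114, edgeR adjusted p = 0.713), with KO replicates 2 and 3 above the other 4 libraries and KO replicate 1 level with WT. Parp9 had the opposite sign (log2 -0.19, SE 0.144; 54.4 ± 8.30 CPM in WT against 47.7 ± 7.97 CPM in KO), and the difference between the genes was not tested. The sources used here do not give the strand setting of the counting, so reads of the overlap cannot be assigned.

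Parp14 was at 157, 112 and 131 CPM in WT against 103, 127 and 114 CPM in KO (log2 -0.21, SE 0.125). Trim30a, a TRIM protein that restrains inflammatory signalling, was at 87.1, 64.6 and 71.6 CPM in WT against 59.4, 68.3 and 62.5 CPM in KO (log2 -0.23, SE 0.110). In both genes WT replicate 1 was highest and the other libraries overlapped.

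Slfn5 and Slfn8 are schlafen proteins, which interferon induces. Slfn5 was at 60.6, 42.5 and 47.4 CPM in WT against 36.0, 39.6 and 45.8 CPM in KO (log2 -0.31, SE 0.139, edgeR adjusted p = 0.713), with KO replicate 3 above WT replicate 2. Slfn8 had a log2 value of -0.22 (SE 0.189).

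The remaining induced genes were all negative. Lgals3bp encodes a secreted glycoprotein that binds galectins, and it was at 355, 311 and 306 CPM in WT against 240, 324 and 296 CPM in KO (log2 -0.18, SE 0.112). Ifi27l2a had the widest KO range of the tested members on the log2 scale, at 17.4, 23.4 and 41.8 CPM against 37.7, 32.3 and 31.4 CPM in WT (log2 -0.29, SE 0.281). Its highest library was KO replicate 3. Ifi35, Sp100, a protein of nuclear bodies, and Rtp4 had log2 values of -0.17, -0.12 and -0.11.

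The rest of the pathway was read from the same test. Of the interferon genes themselves, 21 were looked for and 4 had any read. Ifnb1, the interferon beta gene, had 7, 6 and 2 counts in WT against 0, 2 and 7 in KO, too few to test. Ifna2 had 3 counts and Ifnz 1 count, each in a single WT library. Ifng, the type II interferon made mainly by T and NK cells, had 36, 9 and 30 counts in WT against 10, 38 and 17 in KO (log2 -0.18, SE 0.589).

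Receptors and JAK-STAT genes had 0 of 22 called, 16 negative and a median of -0.04, with 0 at an unadjusted p under 0.05. Ifnar1 was at 312 ± 3.12 CPM in WT against 303 ± 32.5 CPM in KO (log2 -0.04, SE 0.0842), and Ifnar2 at 118 ± 6.19 and 111 ± 3.69 CPM (log2 -0.09, SE 0.0696). The signalling genes did not share 1 order of libraries. Irf7, the factor that amplifies interferon production, was at 100, 66.8 and 69.0 CPM in WT against 51.0, 79.0 and 68.8 CPM in KO (log2 -0.25, SE 0.198), highest and lowest in the first replicates as the effectors were. Stat2 (log2 0.14, SE 0.141) and Irf9 (log2 0.08, SE 0.104) were instead highest in KO replicate 2, at 86.1 and 54.0 CPM. The receptor genes Ifngr1 and Ifngr2 had the smallest p of this list, with log2 values of 0.16 and -0.16.

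Nucleic acid sensing genes had 0 of 18 called, 16 negative and a median of -0.13. At an unadjusted edgeR p under 0.05, 3 of the 18 were lower and 0 higher, where 3.06% of all tested genes were lower and 3.86% higher. Mb21d1, the DNA sensor cGAS, was at 15.7, 13 and 16 CPM in WT against 9.61, 12.02 and 9.17 CPM in KO, and Tlr3 at 14.7 ± 1.62 and 12.2 ± 0.182 CPM. Neither overlapped between the groups and neither passed (edgeR adjusted p = 0.695 and 0.713). GBP and IRG GTPases, which respond strongly to interferon gamma, had 0 of 18 called, 17 negative and a median of -0.53. By the same unadjusted p, 5 of these 18 were lower and 0 higher. Gbp5 was at 198, 88.4 and 133 CPM in WT against 48.5, 84.0 and 74.7 CPM in KO, and Gm4951 had a log2 value of -0.60. The GTPases had a mean centred level of 0.66 in WT replicate 1 and -0.87 in KO replicate 1, the same ends as the effectors with a wider span. Whether the lists differ from each other was not tested.

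**Figure D5:**
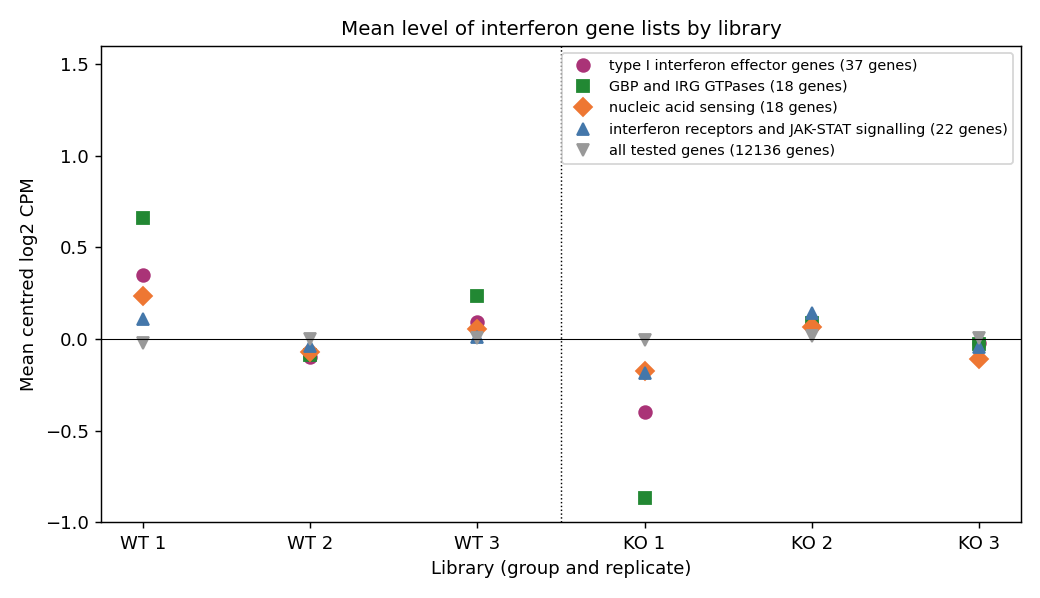
Mean centred log2 CPM of 4 interferon gene lists and of all tested genes (symbols) in each library, with WT libraries left of the dotted line. The effector genes are at 0.35 in WT replicate 1 and -0.40 in KO replicate 1 and within 0.1 of 0 in the other 4 libraries, while all tested genes stay near 0.

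Members with and without an exact match to the ISRE core in their window gave similar values. The split does not separate genes with an ISRE from genes without one. Windows without a match can hold near matches, as those of Phf11d and Xaf1 do (GAAA, a single base, GAAA). Members without a window are in neither set. The 14 tested members with it had a median of -0.23 on the log2 scale and 13 negative values, and the 15 without it had -0.22 and 13. Of the 5 genes without overlap between the groups, Isg15, Bst2 and Eif2ak2 held the core, and Ifi44 and Phf11d did not in the window searched.

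The annotation of the deposited table describes the members by function. They were chosen as antiviral effectors, so high shares of antiviral terms follow from that choice. Of 38 annotated members 24 carry the term defense response to virus, as 0.793% of annotated genes do, and 13 carry negative regulation of viral genome replication, against 0.198%. The term double-stranded RNA binding is attached to 7, which are the 6 OAS genes and Eif2ak2.

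Markers of other cells were set beside these levels, and their part in the differences was not tested. Plasmacytoid dendritic cells, which make much type I interferon, left almost no reads: their 6 markers summed to 0.897 to 1.81 CPM in every library, Klk1 was at 0 and Siglech had at most 1 count in any library. Neutrophil markers summed to 120, 85.4 and 97.4 CPM in WT against 182, 147 and 132 CPM in KO, with 6 of 7 tested positive and Ly6g at 0 in 5 libraries. That separation of the sums rests largely on Mmp9, at 47.7, 30.7 and 40.2 CPM in WT against 125, 46.8 and 64.8 CPM in KO. Csf3r, the next most abundant, overlapped: 50.3, 32.9 and 40.4 CPM in WT against 32.7, 60.3 and 37.2 CPM in KO. Of the 7 tested, 2 had all KO libraries above all WT libraries, as 6.11% of tested genes did. They were Mmp8, at 11.1 ± 3.08 CPM in WT against 16.3 ± 1.86 CPM in KO, and Ltf. Ltf had 5, 7 and 3 counts in WT against 13, 17 and 25 in KO. At an unadjusted edgeR p under 0.05, 4 of the 7 were higher and 0 lower. Among all tested genes 3.86% were higher and 3.06% lower. None of the 7 was called. T and NK markers summed to 18.7, 22.5 and 31.8 CPM in WT against 19.6, 61.4 and 26.6 CPM in KO, with 9 of 10 tested positive. By the same unadjusted p, 2 of these 10 were higher and 0 lower. The highest T and NK sum and the highest Ifng count (38) were both in KO replicate 2, which was neither the highest nor the lowest library for most effectors. WT replicate 1, the highest for most effectors, had nearly as many Ifng counts (36). KO replicate 1, the lowest for most effectors, had 10, and WT replicate 2 had the fewest (9). Whether Ifng and the effectors go together was not tested. Macrophage markers had 7 of 10 negative with a median of -0.10, while Cd68 (log2 0.04), Mertk (0.10) and Apoe (0.04) were positive. All KO libraries lay below all WT libraries in 3 of the 10, a pattern that 6.3% of tested genes showed. Those 3, named after their values were seen, were the complement genes C1qa (log2 -0.21, SE 0.0808), C1qb (-0.19, SE 0.0853) and C1qc (-0.25, SE 0.0815), and none passed (edgeR adjusted p = 0.703, 0.717 and 0.701). Monocyte markers summed to 827 to 938 CPM in WT against 834 to 925 CPM in KO, with 2 of 5 negative.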

How the data were processed

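The authors deposited 1 table of raw read counts per gene for the 6 libraries, with Gene Ontology terms. Per the labels' protocols, a mirVana kit served for extraction and a TruSeq kit for stranded mRNA libraries. Trimmomatic, HISAT2, Cufflinks, HTSeq and mm10 come from the submitters' processing notes, with neither version nor role. The sources used here do not give the gene annotation, the strand setting or the treatment of multi-mapping reads.

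KO was compared with WT over all genes in edgeR 4.0.16 (R 4.3.3): filterByExpr (minimum count 10, minimum total 15), which kept 99.962% of reads, TMM scaling, a robust quasi-likelihood fit with genotype only, and Benjamini-Hochberg adjustment over 12136 genes at 0.05. The members' rows were read from that fit, with no adjustment over the list alone. SE is the log2 fold change divided by the root of the F statistic, and levels use a prior count of 2 on the log2 scale. Counts per tested member ran from 29 to 17022 per library. Scripts were tested on simulated data. Alternatives used DESeq2 1.42.0, limma 3.58.1 (voom), other scalings and filters, a replicate block and each library left out. The numbers 1 to 3 were not taken to pair the libraries.

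Gene positions and exon lengths came from GENCODE M21 (GRCm38, the assembly mm10 names) by symbol, and promoters from RefSeq (GRCm38.p6). Shared sequence is the share of a gene's 50-base words found in transcripts of other genes. The members, lists, families and tests were chosen with earlier results of these data known. All 6 values were given for the 12 tested members with the smallest p and the 4 with the highest CPM. Signalling genes (1 is not reported here) and the interferon genes with reads were named by a stated list, and the 2 genes with the smallest p from each other pathway list; cell marker lists are given as sums and counts. Other members are named by family.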

Additional observations from a re-analysis of the deposited data

How the results depend on the processing

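No alternative called any member in either direction, though DESeq2 gave no adjusted p for Ifi44. With RLE factors, upper-quartile factors, library totals alone, no filter, limma-voom or the replicate block, 1 gene was called lower in KO, with at least 1 CPM in 3 libraries 0, and with DESeq2 19 lower and 8 higher, against 2 and 0. Trmt61a stayed at log2 -1.81 with the 1 CPM filter (adjusted p = 0.0571), -1.82 with limma-voom (0.0522) and -1.82 with the replicate block (0.103), none of which passed; the cause was not tested. Same-numbered libraries did not deviate together (correlations of -0.0574, -0.0941 and -0.109). With 3 libraries a group this cannot settle whether the numbers pair them, and the labels do not say. The replicate block left 34 members negative. With 1 library left out, 0 to 2 genes were called lower and 0 to 3 higher, and Trmt61a ran from -1.94 to -1.69 (edgeR adjusted p up to 0.314). The members' median then ran from -0.314 to -0.0975. Members lower without overlap between groups numbered 5 to 15 of 37, beside 9.13% to 15.6% of all tested genes. This number cannot fall below the 5 of all libraries, where the share of all tested genes was 6.3%. Samhd1 ran from -0.327 to -0.064, Lgals3bp from -0.274 to -0.065 (both without KO replicates 2 and 1 in turn) and Ifitm3 from -0.384 (without KO replicate 3) to -0.058 (without WT replicate 1). Without WT replicate 1 and KO replicate 1, chosen after the data were seen, 1 gene was called lower, 15 members were negative, the median was 0.035, Trmt61a was at -1.77 (adjusted p = 0.461), and Samhd1 (0.053), Ifitm3 (0.064) and Lgals3bp (0.0022) changed sign; the fit then rests on 2 libraries a group. In the other alternatives 31 to 36 members were negative. Low counts kept Ifit3b, Ifnb1, Ifna2 and Ifnz out of the test.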
